A study of Mus musculus with 27 samples.

Results

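The lungs of KK/HlJ mice were compared with those of MRL/MpJ mice on 6 microarrays, 3 arrays for each strain, out of 27 arrays of 9 inbred strains in the whole series. The members are the 3 KK/HlJ and the 3 MRL/MpJ arrays, taken by the strain label, and all 20239 genes with a symbol were followed on them. RNA came from the right lung of normal 11-week-old female mice, and each array is a separate mouse. KK/HlJ and MRL/MpJ are labelled as decreased for both the severity and the frequency of spontaneous pulmonary adenoma. The other 7 strains are labelled as increased in severity. Frequency is labelled increased in A/J, DBA/2J and C57BL/6J and decreased in C57L/J, C3H/HeJ, 129S1/SvlmJ and BALB/cJ. No agent, transgene or deletion was given on the labels, so the strains differ by their inherited backgrounds, and each label describes a strain and not the lung that was taken. By its design text the study made all 36 pairwise strain comparisons before it compared adenoma classes. The present one gives how far apart lungs of the 2 strains that share the low class were, and which levels they share.

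KK/HlJ is an inbred strain known for obesity and a polygenic form of diabetes. MRL/MpJ is known for the healing of ear wounds and for autoimmunity late in life. Inbred strains carry different haplotypes of the major histocompatibility complex (MHC), whose class I genes present peptides to CD8+ T cells and NK cells and whose class II genes present peptides to CD4+ T cells. In the lung, alveolar type II cells make surfactant, alveolar macrophages clear it, and club cells line the small airways.

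All levels below are log2 signal, and a difference is KK/HlJ minus MRL/MpJ, so that a difference of 1 is a doubling. A gene was called where limma gave a Benjamini-Hochberg adjusted p under 0.05 and the difference was at least 1 in size; a gene with an adjusted p under 0.05 and any size is said to have passed the test. Y-linked genes, which females lack, gave the background: the brightest of them, Sry, averaged 5.09 over the 27 arrays and the next, Kdm5d, 3.42. Where 1 strain's mean was at or below 5.09, the fold is given as "at least", from the brighter mean against the higher of 5.09 and the dimmer mean. Signal depends on how well a strain's sequence matches the probes as well as on the amount of transcript, and these cannot be told apart here. Probe sets of close relatives (the H2-Q, H2-T, Gbp, Trim and immunoglobulin genes) may also share target sequence, so the split of signal within such a family is uncertain.

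The lung markers were bright in both strains. Sftpc, the surfactant protein C gene, read 13.15, 12.99 and 13.23 in KK/HlJ and 13.04, 13.19 and 12.98 in MRL/MpJ, and Scgb1a1, the club cell secretoglobin, 12.76, 12.70 and 12.82 in KK/HlJ and 12.79, 12.86 and 12.76 in MRL/MpJ. Arrays correlated at 0.9897 to 0.9927 within KK/HlJ, 0.9913 to 0.9931 within MRL/MpJ and 0.983 to 0.9864 between the strains, and each was closest to an array of its own strain. One array stood apart in a group of genes: KK/HlJ replicate 3 read liver genes. Alb, serum albumin, was at 6.42, 4.97 and 9.84 in the KK/HlJ arrays and 6.05, 7.43 and 7.95 in the MRL/MpJ arrays, and Serpina1c, an alpha-1-antitrypsin gene, at 5.08, 3.11 and 9.24 in KK/HlJ and 4.58, 4.49 and 3.58 in MRL/MpJ. Without this array the difference of Serpina1c was -0.12, against 1.59 with it, and neither passed. Counts of list members that passed are given with and without it where it moved them. The array names hold a number that is lower on every KK/HlJ array than on every MRL/MpJ array. The labels do not say what it counts, and anything that goes with it cannot be told apart from strain.

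Of the 20239 genes, 89 were called higher in KK/HlJ (0.44%) and 46 lower (0.227%), which makes 135 in all (0.667%). Without KK/HlJ replicate 3 there were 96 higher and 46 lower. With no minimum size, 1016 genes were higher (5.02%) and 853 lower (4.21%), and the median difference over all genes was -0.02. Without KK/HlJ replicate 3 there were 979 higher and 703 lower. The list counts below are to be read beside these shares over all genes. The difference was at least 2 in size for 35 called genes, at least 3 for 16 and at least 4 for 8, and it ran from -6.04 for H2-Ea to 5.60 for Trim12a. In 134 of the 135 the 3 arrays of a strain did not overlap those of the other, where 12.5% of all genes had every KK/HlJ array above every MRL/MpJ array and 12.6% every array below. The exception was Chchd2, a mitochondrial protein gene, with 10.32, 8.98 and 10.99 in KK/HlJ and 6.98, 9.59 and 5.36 in MRL/MpJ, and it did not pass without KK/HlJ replicate 1 or 3 or MRL/MpJ replicate 1 or 3 (difference 1.81 to 3.93 over the arrays left out). Among the 36 pairs of strains this pair had the eighteenth highest count of calls, and the pairs ranged from 71 to 199 with a median of 134. By genes with any difference, 1869 here (9.23%), it ranked the sixth, against a median of 1345.

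**Figure D1:**
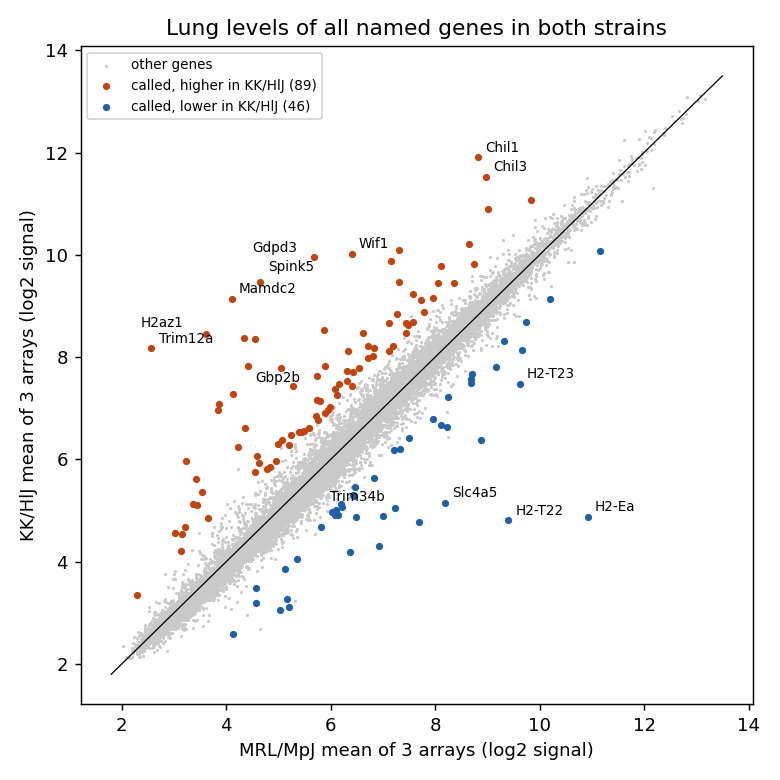
Mean log2 signal of the 3 KK/HlJ arrays (y axis) against that of the 3 MRL/MpJ arrays (x axis) for all named genes, with the line of equal levels. The 89 genes called higher in KK/HlJ lie above the line and the 46 called lower lie below it, with H2-Ea and H2-T22 furthest below.

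The other 7 strains give a range to set the pair against, and a mean counted as outside it by any amount. Of the 89 genes called higher, 37 had only KK/HlJ outside the range of the other 7 strain means, 16 only MRL/MpJ, 18 both and 18 neither. Of the 46 called lower, 17 had only KK/HlJ outside, 11 only MRL/MpJ, 4 both and 14 neither. The same shares were not worked out for all genes. These counts do not tell which strain was further from the others. Gbp2b counted as only KK/HlJ outside, but KK/HlJ was 0.44 above the median of the 7 and MRL/MpJ 2.96 below it. H2az1 counted as only MRL/MpJ outside, with KK/HlJ 4.05 above the median and MRL/MpJ 0.78 below it.

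KK/HlJ alone stood out in several of the furthest genes. Spink5, which encodes a serine protease inhibitor of squamous epithelia, read 9.57, 9.46 and 9.39 in KK/HlJ and 4.86, 4.58 and 4.52 in MRL/MpJ. It was at least 20.9-fold higher in KK/HlJ (difference 4.82, standard error 0.17, adjusted p = 5e-16), and the other strain means ran from 3.95 to 5.88. Wif1, a secreted inhibitor of Wnt signalling, was at 10.06, 10.04 and 9.96 in KK/HlJ against 6.50, 6.21 and 6.49 in MRL/MpJ, 12.3-fold higher (adjusted p = 2.96e-16); no other strain mean passed 7.24. Nlrp1a, an inflammasome sensor, was at 6.45, 6.12 and 6.19 in KK/HlJ and at or under background in MRL/MpJ (4.25, 4.32 and 4.14) and in the other 7 (3.75 to 4.50), at least 2.24-fold higher (adjusted p = 1.88e-10). In the other direction Slc4a5, a sodium bicarbonate cotransporter, was at 5.44, 4.92 and 5.11 in KK/HlJ and 8.20, 8.22 and 8.14 in MRL/MpJ, 8.17-fold lower (adjusted p = 4.42e-16), with the others from 7.80 to 8.20. Zfp607a, a zinc finger protein gene, read 4.74, 4.65 and 3.51 in KK/HlJ and 7.03, 6.79 and 6.95 in MRL/MpJ, and was at least 3.55-fold lower in KK/HlJ (adjusted p = 2.7e-09). Gabra3, a GABA receptor subunit gene, had 4.44, 4.03 and 4.08 in KK/HlJ and 6.28, 6.25 and 6.60 in MRL/MpJ, at least 2.44-fold lower (adjusted p = 2.68e-09). For both of these the other strains lay close to MRL/MpJ, from 6.45 to 7.05 for Zfp607a and from 5.92 to 6.96 for Gabra3.

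In others MRL/MpJ lay far from the other strains. Mamdc2, which encodes a protein with MAM domains, was at 9.19, 9.26 and 8.97 in KK/HlJ and 4.32, 3.90 and 4.11 in MRL/MpJ. It was at least 16.6-fold higher in KK/HlJ (difference 5.03, standard error 0.13, adjusted p = 2.72e-18). The other 7 strain means, at 8.60 to 9.09, lay just below KK/HlJ and far above MRL/MpJ. Gm14548 read 6.88, 6.95 and 7.06 in KK/HlJ and 3.74, 4.04 and 3.73 in MRL/MpJ, at least 3.66-fold higher (adjusted p = 2.95e-09), with the other means at 5.31 to 7.47. Rnf7, a subunit of cullin ubiquitin ligases, was at 7.97, 7.68 and 7.81 in KK/HlJ and 5.52, 6.25 and 5.92 in MRL/MpJ, 3.8-fold higher (adjusted p = 2.38e-09), against 7.65 to 7.87 elsewhere; it was chosen after its values were seen.

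For other genes at the top of the order 1 or more of the other strains sat with KK/HlJ. H2az1, a histone H2A variant gene, had 8.56, 8.18 and 8.61 in KK/HlJ and 3.03, 3.44 and 4.39 in MRL/MpJ, at least 10.3-fold higher (adjusted p = 9.69e-10), and C57BL/6J was high with KK/HlJ at 8.80. Gdpd3, a lysophospholipase D gene, read 10.09, 9.72 and 10.06 in KK/HlJ and 5.70, 5.42 and 5.90 in MRL/MpJ, 19.4-fold higher (adjusted p = 2.73e-17), with 129S1/SvlmJ (10.29) and C57L/J (9.40) also high. Nell1, a secreted protein gene, was at 7.35, 7.51 and 6.95 in KK/HlJ and 4.14, 3.96 and 4.31 in MRL/MpJ, at least 4.54-fold higher (adjusted p = 2.52e-12), with C57L/J at 7.46. BC018473 and Nxpe4 had the same form, at least 9.74-fold and at least 3.99-fold higher in KK/HlJ. In each the other high strain was 1, 129S1/SvlmJ for BC018473 (8.55) and C57BL/6J for Nxpe4 (7.32). 5830417I10Rik was lower in KK/HlJ, with 5.06, 4.36 and 4.93 against 7.76, 7.87 and 7.47 in MRL/MpJ (at least 6.09-fold, adjusted p = 9.98e-06), and C57L/J (4.57), DBA/2J (4.70) and BALB/cJ (5.56) were low with KK/HlJ.

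**Figure D2:**
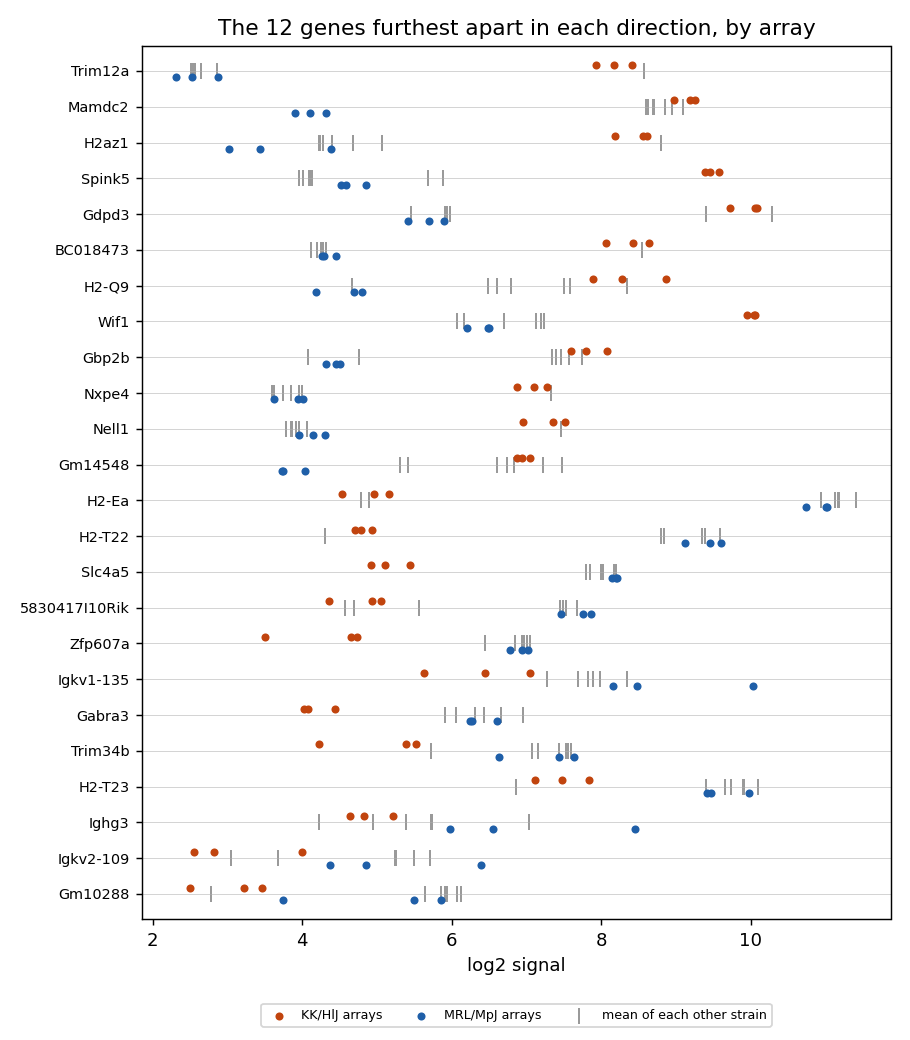
Log2 signal (x axis) of the 12 genes with the largest difference in each direction, 1 row per gene: KK/HlJ arrays, MRL/MpJ arrays below them, and the mean of each other strain as a grey tick. Spink5 and Wif1 are high in KK/HlJ alone and Mamdc2 is low in MRL/MpJ alone, while for Trim12a and H2az1 a single other strain sits with KK/HlJ.

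The largest single difference was in the MHC. H2-Ea encodes the alpha chain of the class II E molecule, and some H2 haplotypes are known not to express it. It read 4.96, 5.16 and 4.53 in KK/HlJ and 10.74, 11.01 and 11.02 in MRL/MpJ, at least 57-fold lower in KK/HlJ (difference -6.04, standard error 0.12, adjusted p = 1.54e-20). C57BL/6J (4.79) and 129S1/SvlmJ (4.90) were at the KK/HlJ level, and the other 5 strains were between 10.94 and 11.42. Of the 12 measured genes of the class II list, 4 were higher in KK/HlJ and only H2-Ea was lower, with a list median of 0.32 against -0.02 over all genes. H2-Ab1, the A beta chain, was at 9.91, 9.67 and 10.28 in KK/HlJ and 9.09, 9.35 and 8.73 in MRL/MpJ (0.90, adjusted p = 0.000151). H2-Eb1, the partner chain of H2-Ea, was at 9.78, 9.53 and 10.02 in KK/HlJ and 9.10, 9.23 and 9.11 in MRL/MpJ (0.63, adjusted p = 0.000375). H2-Ob, part of a regulator of peptide loading, differed by 0.86 (adjusted p = 0.000351). The master regulator Ciita and the invariant chain Cd74 did not pass, at -0.05 (95% interval -0.36 to 0.26) and -0.09 (-0.31 to 0.13).

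Class I genes moved in both directions. Of 22 measured genes of the class I pathway, 6 were higher in KK/HlJ and 3 lower, with a median of 0.05. Without KK/HlJ replicate 3, 5 were higher and 3 lower, and the median was -0.05. H2-Q9, a nonclassical class I gene, was at 8.28, 7.89 and 8.87 in KK/HlJ and 4.70, 4.19 and 4.80 in MRL/MpJ, at least 9.55-fold higher (adjusted p = 2.54e-10). H2-Q6 was at 10.10, 9.29 and 10.27 in KK/HlJ and 7.28, 7.40 and 6.78 in MRL/MpJ, 6.64-fold higher (adjusted p = 7.32e-10). H2-D1, a classical class I gene, read 10.21, 10.04 and 10.37 in KK/HlJ and 8.67, 8.64 and 8.67 in MRL/MpJ, 2.93-fold higher (adjusted p = 2.59e-11). In all of these MRL/MpJ sat with C3H/HeJ at the bottom of the 9 strains, and C3H/HeJ was at 4.67 for H2-Q9, 7.18 for H2-Q6 and 8.67 for H2-D1. The T region was opposite. H2-T22, a ligand of some gamma-delta T cells, read 4.79, 4.93 and 4.71 in KK/HlJ and 9.13, 9.61 and 9.46 in MRL/MpJ, at least 19.8-fold lower (adjusted p = 5.43e-15). H2-T23, which encodes Qa-1, a ligand of NK cell receptors, was at 7.84, 7.48 and 7.12 in KK/HlJ and 9.41, 9.98 and 9.47 in MRL/MpJ, 4.41-fold lower (adjusted p = 1.09e-07). A/J was low with KK/HlJ for both, at 4.30 for H2-T22 and 6.86 for H2-T23. H2-T10, their neighbour, was higher in KK/HlJ, with 7.25, 6.60 and 7.55 against 5.78, 5.64 and 5.97 in MRL/MpJ (adjusted p = 0.000258). The common light chain B2m and the transporter Tap2 did not pass (-0.02, 95% interval -0.27 to 0.23, and -0.08, -0.27 to 0.10).

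**Figure D3:**
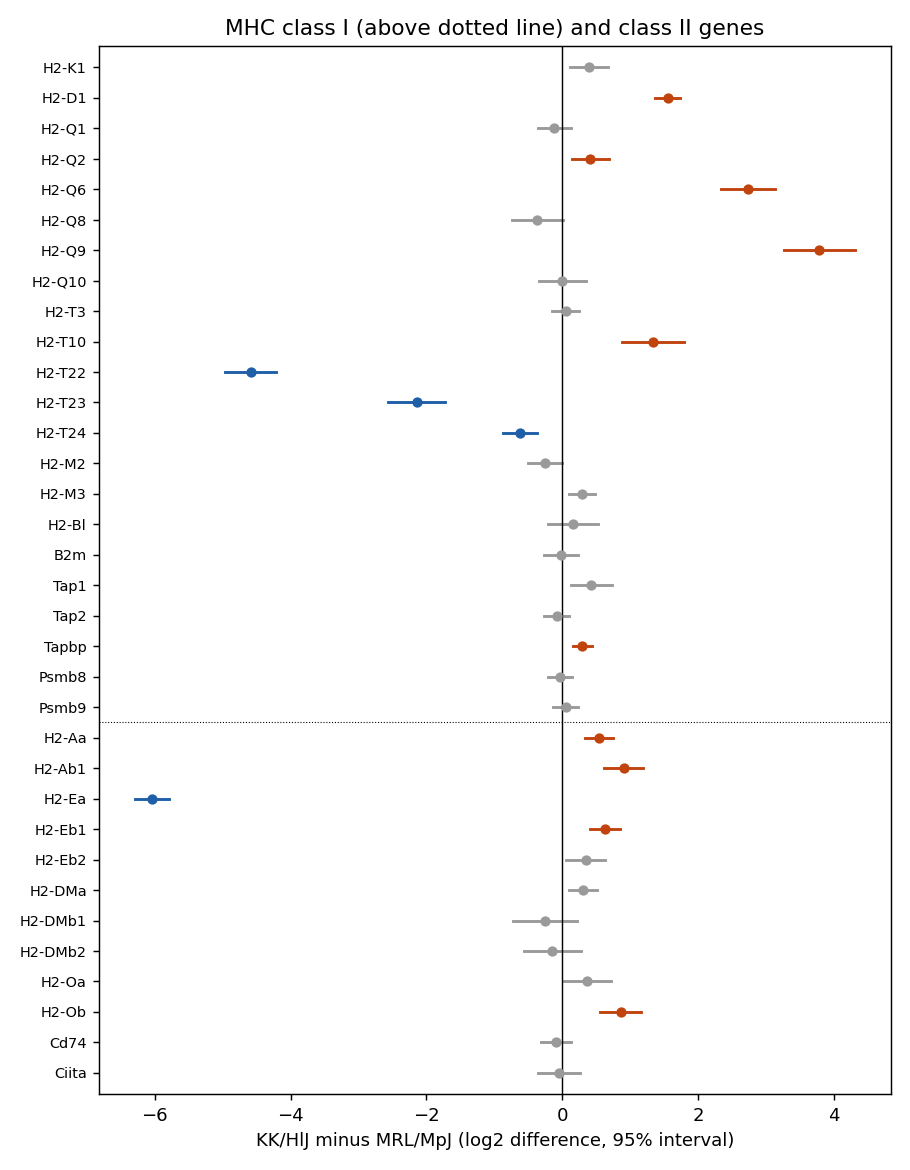
Difference KK/HlJ minus MRL/MpJ (x axis, log2, with its 95% interval) of each measured MHC gene, class I pathway above the dotted line and class II below it; coloured points passed the test, red higher and blue lower in KK/HlJ, and grey points did not. H2-Ea, H2-T22 and H2-T23 lie furthest to the left, and H2-Q9 and H2-Q6 furthest to the right.

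The stretches before the start of H2-Q6 and H2-D1 are printed because these close relatives were higher in KK/HlJ together; capitals mark CCAAT on either strand, the box bound by nuclear factor Y. They come from RefSeq on the build GRCm38.p6, that is, from the reference strain and not from KK/HlJ or MRL/MpJ, and each ends at the base before the start of transcription.
H2-Q6 (chr17:35424740-35424849, plus strand): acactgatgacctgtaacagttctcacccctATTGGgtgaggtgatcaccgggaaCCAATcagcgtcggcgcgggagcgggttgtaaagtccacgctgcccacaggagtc
H2-D1 (chr17:35262984-35263093, plus strand): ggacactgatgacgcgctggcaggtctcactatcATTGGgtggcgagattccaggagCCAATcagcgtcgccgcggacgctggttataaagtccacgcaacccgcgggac
Over the 250 bases before the start, 77.0% of the aligned positions were identical without gaps. Both stretches hold CCAAT once on each strand. The motif occurs in the promoter window of 41.1% of 27025 genes, so it is not particular to H2-Q6 and H2-D1. Among class I pathway genes with a window it was in 12 of 15 (80.0%), and these include H2-T22 and H2-T23, which were lower in KK/HlJ.

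Genes induced by interferon were also uneven. Of 14 guanylate-binding and immunity-related GTPase genes, which act against intracellular microbes, 4 were higher in KK/HlJ and 1 lower, with a median of 0.25. Without KK/HlJ replicate 3, 3 were higher and 1 lower, with a median of 0.11. Gbp2b was at 7.80, 7.60 and 8.08 in KK/HlJ and 4.31, 4.51 and 4.46 in MRL/MpJ, at least 6.67-fold higher (adjusted p = 9.21e-16). MRL/MpJ shared its low level with C57BL/6J (4.08) and DBA/2J (4.76). Iigp1 was at 7.87, 7.26 and 8.08 in KK/HlJ and 6.05, 6.85 and 6.03 in MRL/MpJ (adjusted p = 0.00476). Gbp11 was at 6.13, 6.39 and 7.11 in KK/HlJ and 5.57, 5.45 and 5.16 in MRL/MpJ (adjusted p = 0.0036), and its difference was 1.15 with all arrays and 0.87 without KK/HlJ replicate 3. Gbp4, next to it on chromosome 5, differed by 1.07 (adjusted p = 0.0106) but did not pass without KK/HlJ replicate 3 (0.85, adjusted p = 0.0625) or without MRL/MpJ replicate 1. Gbp3 was the member lower in KK/HlJ, with 8.39, 8.19 and 8.64 against 9.35, 9.16 and 9.03 in MRL/MpJ (adjusted p = 0.0274), and it did not pass without KK/HlJ replicate 1 or 2 or MRL/MpJ replicate 1 or 2. Of 29 antiviral genes outside this family, 2 were higher and 1 lower (median 0.14), which is near the 9.23% of all genes that passed. Ifit3, which binds foreign RNA as part of a complex, led them with 7.56, 7.33 and 7.53 in KK/HlJ and 6.06, 6.19 and 6.21 in MRL/MpJ (2.49-fold, adjusted p = 0.000176). A neighbouring pair of genes of the Ifi200 family of DNA sensors, Ifi203 (-1.17, adjusted p = 9.18e-06) and Ifi208 (-1.09, adjusted p = 4.99e-06), were lower in KK/HlJ, and for Ifi208 both strain means were below background.

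The Trim12, Trim30 and Trim34 genes on chromosome 7, relatives of the antiviral restriction factor Trim5, held the largest positive difference. Trim12a read 7.94, 8.17 and 8.41 in KK/HlJ and 2.52, 2.32 and 2.87 in MRL/MpJ, at least 8.47-fold higher (difference 5.60, adjusted p = 3.95e-18). Trim30d was at 6.06, 5.67 and 6.18 in KK/HlJ and 3.34, 3.14 and 3.20 in MRL/MpJ, at least 1.84-fold higher (adjusted p = 1.28e-12). Trim34b went the other way, with 4.22, 5.39 and 5.52 in KK/HlJ and 6.63, 7.64 and 7.44 in MRL/MpJ, at least 4.42-fold lower (adjusted p = 3.59e-05). For all of these KK/HlJ sat with C57BL/6J, which had 8.57 for Trim12a, 5.98 for Trim30d and 5.73 for Trim34b. Of the 10 measured genes of the cluster, 2 were higher and 2 lower, and 3 and 2 without KK/HlJ replicate 3. With all arrays Trim12c (0.04) and Trim34a (0.01), the nearest relatives of Trim12a and Trim34b, did not pass.

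Interferon-regulated factors bind a response element, sought here as GAAA, any 2 bases, GAAA, and stretches that hold it are shown for genes of both directions. Capitals mark the match, which lies on the strand opposite to the gene in each and so reads TTTC, any 2 bases, TTTC.
Gbp2b (chr3:142594665-142594764, plus strand): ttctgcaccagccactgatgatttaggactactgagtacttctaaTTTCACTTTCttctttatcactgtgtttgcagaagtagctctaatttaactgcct
Ifit3 (chr19:34583328-34583427, plus strand): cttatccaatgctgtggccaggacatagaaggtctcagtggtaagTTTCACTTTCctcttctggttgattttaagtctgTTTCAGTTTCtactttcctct
Trim30d (chr7:104507850-104507935, minus strand): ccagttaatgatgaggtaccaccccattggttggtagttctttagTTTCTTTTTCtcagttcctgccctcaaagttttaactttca
H2-T22 (chr17:36042879-36042978, minus strand): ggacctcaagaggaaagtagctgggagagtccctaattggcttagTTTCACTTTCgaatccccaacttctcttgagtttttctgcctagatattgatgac
H2-T23 (chr17:36032771-36032870, minus strand): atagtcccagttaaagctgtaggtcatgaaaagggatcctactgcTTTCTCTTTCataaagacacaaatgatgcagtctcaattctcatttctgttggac
Gbp2b, Ifit3 and Trim30d were higher in KK/HlJ, and H2-T22 and H2-T23 lower. The motif was sought on both strands from 250 bases before to 50 after the start, and 3.99% of 27025 genes hold it. Among called genes with a window in the table it was in 7 of 60 higher in KK/HlJ (11.7%) and 4 of 32 lower (12.5%). It was in 8 of 9 GTPase genes with a window (88.9%), of which Gbp2b was higher in KK/HlJ, Gbp3 lower, and Gbp2, Gbp5, Gbp7, Igtp, Irgm1 and Irgm2 did not pass. The match is in the reference sequence, and whether KK/HlJ or MRL/MpJ carry it was not tested.

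Alveolar type II cell genes were mostly higher in KK/HlJ. Of 17 measured, 10 were higher and 1 lower, with a median of 0.27, and 9 and 1 without KK/HlJ replicate 3. In bulk lung, fewer cells of a type and less RNA per cell cannot be told apart. Chil1, a chitinase-like protein gene, led with 11.91, 11.97 and 11.84 in KK/HlJ and 8.86, 8.83 and 8.76 in MRL/MpJ, 8.49-fold higher (adjusted p = 3.18e-15). Napsa, the aspartic protease that matures surfactant protein B, was at 10.38, 10.39 and 10.42 in KK/HlJ and 9.42, 9.66 and 9.38 in MRL/MpJ (0.91, adjusted p = 3.33e-08). Sftpd, a surfactant collectin, was at 10.95, 10.97 and 11.02 in KK/HlJ and 10.38, 10.58 and 10.47 in MRL/MpJ (0.51, adjusted p = 0.000151). The brightest marker did not pass: Sftpc differed by 0.05 (95% interval -0.09 to 0.20), and the lineage factor Nkx2-1 by -0.08 (-0.25 to 0.08). The member lower in KK/HlJ was Hc, complement C5, with 9.90, 9.95 and 9.73 against 10.57, 10.70 and 10.68 in MRL/MpJ (-0.79, adjusted p = 1.3e-06). The mean level of the 17 genes was 11.12 to 11.16 on the KK/HlJ arrays, 10.66 to 10.83 on the MRL/MpJ arrays and 10.79 to 11.22 on the other 21 arrays. Of 12 type I cell markers, 1 passed (Igfbp2, 0.56, adjusted p = 0.0328), and it did not pass without KK/HlJ replicate 2 or 3 or without MRL/MpJ replicate 2 or 3. Without KK/HlJ replicate 3, 0 type I markers were higher and 1 was lower.

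Airway genes passed in both directions. Of 13 club cell markers, 1 was higher and 4 lower in KK/HlJ, with a median of -0.16. Scgb3a1, a secretoglobin, was at 9.06, 7.95 and 7.43 in KK/HlJ and 9.84, 9.69 and 9.46 in MRL/MpJ, 2.86-fold lower (adjusted p = 0.0062); the KK/HlJ arrays spread widely but did not overlap MRL/MpJ. Cckar, the cholecystokinin A receptor, differed by -0.52 (adjusted p = 0.00515) and Lypd2 by -0.60 (adjusted p = 0.0058). Aldh1a1, an aldehyde dehydrogenase, was the member higher in KK/HlJ (0.35, adjusted p = 0.00123), and Scgb1a1 differed by -0.04 (95% interval -0.21 to 0.13). Of 20 goblet and secretion genes, 3 were higher and 5 lower, but without KK/HlJ replicate 3 the counts were 1 and 0. Of 17 ciliated cell markers 1 was higher and 1 lower, where 9.23% of all genes passed. Rsph1, a radial spoke gene, was higher, with 8.21, 8.41 and 8.01 in KK/HlJ and 7.16, 7.27 and 7.16 in MRL/MpJ (adjusted p = 1.69e-06). Foxj1, the ciliogenesis factor, was lower (-0.44, adjusted p = 0.0218) and did not pass without KK/HlJ replicate 3 or MRL/MpJ replicate 3.

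Alveolar macrophage markers were higher in KK/HlJ in 7 of 14 genes and lower in none, with a median of 0.35. Without KK/HlJ replicate 3, 6 were higher. Mcoln3, a lysosomal channel gene, read 7.67, 8.11 and 7.56 in KK/HlJ and 5.31, 4.80 and 5.07 in MRL/MpJ, at least 6.46-fold higher (adjusted p = 5e-12). Chil3 (Ym1), a lectin secreted by macrophages, was at 11.56, 11.37 and 11.65 in KK/HlJ and 8.62, 9.17 and 9.15 in MRL/MpJ, 5.84-fold higher (adjusted p = 4.01e-09). Marco, a scavenger receptor, was at 7.24, 7.50 and 7.03 in KK/HlJ and 6.00, 6.04 and 6.32 in MRL/MpJ, 2.19-fold higher (adjusted p = 0.000293), and Siglecf, a lectin of these cells and of eosinophils, differed by 0.63 (adjusted p = 0.00121). Chil3 and Mcoln3 were lowest in or near MRL/MpJ: the other strains ran from 9.01 to 11.20 for Chil3 and from 4.99 to 7.06 for Mcoln3. Fabp1, which liver cells also make, read 6.68, 6.79 and 9.42 in KK/HlJ and 5.39, 5.74 and 6.08 in MRL/MpJ, with the highest value on the array that read liver genes. Its difference was 1.89, and without that array it was 1.00 (adjusted p = 0.0131). The mean level of the list was 8.50 to 8.58 on the KK/HlJ arrays, 7.77 to 7.88 on the MRL/MpJ arrays and 7.53 to 8.77 on the others. Of 17 interstitial macrophage and monocyte genes 4 were higher and none lower (median 0.11), led by the mannose receptor Mrc1 (0.62, adjusted p = 0.00167); without KK/HlJ replicate 3 the counts were 2 and 1.

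Chitinase-like genes, a family that overlaps those lists through Chil1 and Chil3, were higher in KK/HlJ in 5 of 9 and lower in none, with a median of 0.41. Chia1, acidic mammalian chitinase, was at 8.96, 9.20 and 9.20 in KK/HlJ and 8.29, 8.50 and 8.14 in MRL/MpJ (0.81, adjusted p = 0.000283). Chil4 was at 5.13, 4.52 and 5.09 in KK/HlJ and 3.96, 3.95 and 4.05 in MRL/MpJ, with both strain means below background (0.93, adjusted p = 0.000948). Of 22 genes of type 2 immunity, 4 were higher and 1 lower, and 3 of the 4 were Chil3, Chil4 and Siglecf; the fourth was the alarmin Il33, with 9.49, 9.70 and 9.35 in KK/HlJ and 9.03, 8.92 and 8.69 in MRL/MpJ (0.63, adjusted p = 0.00579).

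Platelet and megakaryocyte genes were higher in KK/HlJ in 6 of 15 and lower in none, with a median of 0.43. Tubb1, the platelet tubulin, was at 9.08, 9.02 and 9.23 in KK/HlJ and 7.77, 7.75 and 7.70 in MRL/MpJ, 2.59-fold higher (adjusted p = 4.01e-05), above the other strains (6.75 to 8.70). Ppbp, a platelet chemokine, was at 10.83, 10.69 and 11.15 in KK/HlJ and 8.70, 9.00 and 9.34 in MRL/MpJ, 3.68-fold higher (adjusted p = 0.00737). Pf4 (adjusted p = 0.039) and Clec1b (adjusted p = 0.0369) did not pass without either of KK/HlJ replicates 1 and 3 or MRL/MpJ replicates 1 and 2, and Pf4 also without MRL/MpJ replicate 3. Itga2b failed without any 1 of the 6 arrays, and P2ry12 without any of 5 of them. Only Tubb1 and Ppbp among the higher members passed with each of the 6 arrays left out. Without KK/HlJ replicate 3 the list had 3 higher. Of 10 erythroid genes, 2 were higher and 2 lower (2 and 1 without KK/HlJ replicate 3). How much blood was left in each lung is not on the labels, and its part was not tested.

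Neutrophil genes were lower in KK/HlJ in 5 of 18 and higher in 1, with a median of -0.35, where 4.21% of all genes were lower. Without KK/HlJ replicate 3, 4 were lower and 1 higher. Mmp9, a gelatinase, was at 5.88, 6.04 and 6.08 in KK/HlJ and 6.65, 6.66 and 6.62 in MRL/MpJ (-0.64, adjusted p = 0.00528). S100a8, a subunit of calprotectin, was at 6.19, 5.90 and 6.49 in KK/HlJ and 7.14, 7.32 and 7.17 in MRL/MpJ (-1.02, adjusted p = 0.0171), and did not pass without KK/HlJ replicate 1 or 2 or MRL/MpJ replicate 2. Camp, Padi4 and Ltf were lower as well, but Camp and Padi4 each failed without any of 4 of the 6 arrays and Ltf without any of 5. Only Mmp9 among the lower members passed with each of the 6 arrays left out. Lcn2, an iron-withholding lipocalin that epithelium makes as well, was the member higher in KK/HlJ, with 10.16, 9.95 and 10.20 against 9.35, 9.42 and 9.43 in MRL/MpJ (0.71, adjusted p = 0.000543). The mean level of the list was 5.70 to 5.77 on the KK/HlJ arrays, 6.06 to 6.14 on the MRL/MpJ arrays and 5.32 to 6.20 on the others. Of 14 dendritic cell genes 1 was higher and 3 lower, with Clec9a, a receptor of type 1 dendritic cells, at 5.70, 5.53 and 5.15 in KK/HlJ and 6.61, 6.31 and 6.49 in MRL/MpJ (adjusted p = 4.03e-05).

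In the lymphocyte lists 1 of 16 B cell markers, 1 of 17 T cell markers and 4 of 25 NK and cytotoxic genes passed, where 9.23% of all genes did. Without KK/HlJ replicate 3 no B cell marker, 1 T cell marker and 3 NK genes passed. Thy1, a T cell surface protein that stromal cells also carry, was at 6.25, 6.31 and 6.62 in KK/HlJ and 6.99, 7.03 and 7.20 in MRL/MpJ (-0.68, adjusted p = 0.000426). Klra8, Klrb1c and Klrk1, the NK receptor genes that passed as higher in KK/HlJ, were below background in both strains. Gzma, a granzyme gene, was lower, with 7.26, 6.84 and 6.90 in KK/HlJ and 7.51, 7.99 and 7.92 in MRL/MpJ (-0.81, adjusted p = 0.0187). Gzma did not pass without KK/HlJ replicate 2 or 3 or MRL/MpJ replicate 2 or 3. Immunoglobulin genes were called in both directions. Ighv8-12, a heavy-chain variable gene chosen after its values were seen, was higher in KK/HlJ, with 5.74, 6.04 and 5.07 against 3.48, 3.20 and 3.59 in MRL/MpJ (at least 1.44-fold, adjusted p = 0.00691). Igkv1-135, a light-chain variable gene, read 7.05, 5.63 and 6.44 in KK/HlJ and 8.48, 8.16 and 10.03 in MRL/MpJ (-2.52, adjusted p = 0.000566). Ighg3, the IgG3 constant region, was at 4.64, 5.22 and 4.83 in KK/HlJ and 6.56, 8.46 and 5.98 in MRL/MpJ (adjusted p = 0.0268), but did not pass without MRL/MpJ replicate 2, KK/HlJ replicate 1 or KK/HlJ replicate 3 (difference -2.61 to -1.37 over the arrays left out).

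**Figure D4:**
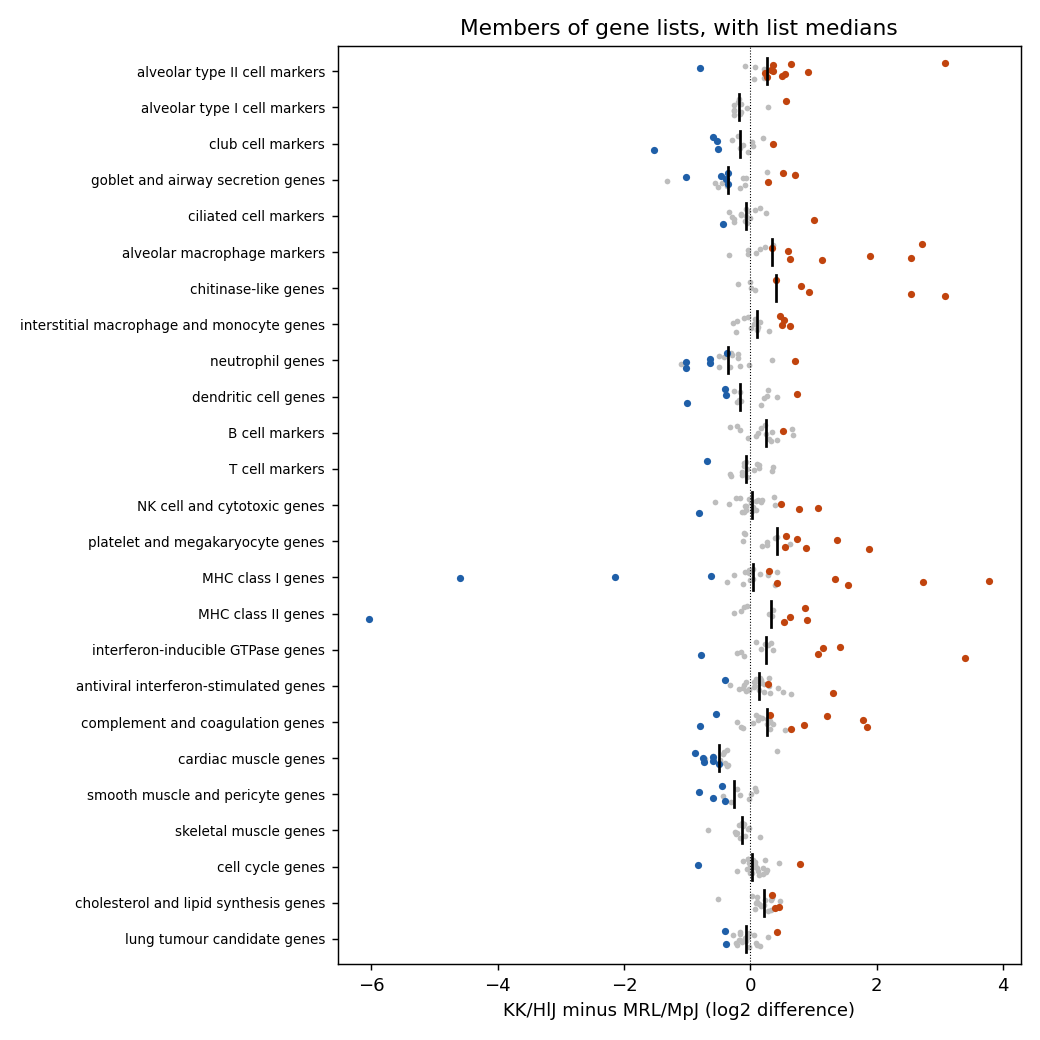
Difference KK/HlJ minus MRL/MpJ (x axis, log2) of each measured member of selected gene lists (rows), with the list median as a black bar; red members passed the test as higher and blue as lower in KK/HlJ, grey members did not pass, and the vertical offset within a row has no meaning. Type II cell, macrophage, chitinase-like and platelet genes have most of their coloured members to the right, and cardiac muscle, smooth muscle and neutrophil genes to the left.

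Complement and coagulation genes were higher in KK/HlJ in 6 of 24 and lower in 2, with a median of 0.27. C4b, complement C4, was at 8.86, 8.03 and 8.55 in KK/HlJ and 6.83, 6.35 and 6.70 in MRL/MpJ, 3.61-fold higher (adjusted p = 9.66e-07). C3H/HeJ, at 6.67, was low with MRL/MpJ, and the remaining strain means, at 7.77 to 8.32, lay nearer to KK/HlJ. Cd59a, which blocks the membrane attack complex, was at 8.08, 8.09 and 8.17 in KK/HlJ and 6.41, 6.34 and 6.26 in MRL/MpJ, 3.44-fold higher (adjusted p = 5.46e-07). F10, coagulation factor X, was at 7.84, 8.23 and 8.02 in KK/HlJ and 6.91, 6.68 and 6.84 in MRL/MpJ, 2.33-fold higher (adjusted p = 5.25e-09). Hc, given with the type II cell genes, was 1 of the 2 lower.

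Some muscle genes were lower in KK/HlJ. Of 16 cardiac muscle genes, which mouse lung carries in the sleeves of its veins, 6 were lower and none higher, with a median of -0.49. Mybpc3, myosin-binding protein C, differed by -0.87 (adjusted p = 0.00263), with every KK/HlJ array below every MRL/MpJ array, and Tnni3, cardiac troponin I, was at 7.69, 7.32 and 7.51 in KK/HlJ and 8.38, 8.24 and 8.11 in MRL/MpJ (-0.73, adjusted p = 0.00124). Ryr2, the calcium release channel, differed by -0.75 (adjusted p = 0.00123). The remaining lower members were less firm. Myl3 failed without any 1 of the 6 arrays, Myl4 without any of 5 of them, and Tnnt2 without KK/HlJ replicate 3 or MRL/MpJ replicate 1. Without KK/HlJ replicate 3, 3 were lower and 1 higher. The mean level of the list was 7.41 to 7.77 on the KK/HlJ arrays and 7.88 to 8.22 on the MRL/MpJ arrays, and how much vein or heart tissue each sample held was not tested. Of 12 smooth muscle and pericyte genes 4 were lower and none higher (median -0.27), and without KK/HlJ replicate 3, 3 were lower. Actg2, a smooth muscle actin, was at 6.66, 6.81 and 6.41 in KK/HlJ and 7.45, 7.43 and 7.44 in MRL/MpJ (-0.81, adjusted p = 3.81e-05). Cnn1, calponin, differed by -0.59 (adjusted p = 0.00142). Of 13 skeletal muscle genes none passed.

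Genes tied to the known traits of the strains differed singly. Of 26 obesity and diabetes genes 3 were higher and 2 lower, with a median of -0.02, where 9.23% of all genes passed. Igfbp3, a carrier of insulin-like growth factors, was at 7.70, 7.62 and 7.17 in KK/HlJ and 8.93, 8.60 and 8.55 in MRL/MpJ, 2.28-fold lower (adjusted p = 2.58e-05). Fbp2, a fructose bisphosphatase, was at 8.38, 8.46 and 8.31 in KK/HlJ and 7.69, 7.38 and 7.15 in MRL/MpJ (0.97, adjusted p = 3.59e-05). BALB/cJ (8.25) and 129S1/SvlmJ (8.15) were also high for Fbp2. Lepr, the leptin receptor, differed by 0.63 (adjusted p = 0.000131) and Slc2a1, a glucose transporter, by -0.40 (adjusted p = 0.00182). For Lepr the KK/HlJ mean (8.72) lay within the range of the other 7 strains (8.45 to 8.73), and MRL/MpJ (8.09) lay below it. Of 20 autoimmunity and repair genes 4 were higher and 1 lower, and 3 and 1 without KK/HlJ replicate 3. Tnfsf13b, the B cell survival factor BAFF, was at 8.43, 8.38 and 8.22 in KK/HlJ and 7.70, 7.58 and 7.63 in MRL/MpJ (0.71, adjusted p = 0.000777), and Tlr7, a sensor of single-stranded RNA, at 6.94, 6.96 and 6.76 in KK/HlJ and 6.08, 6.08 and 6.35 in MRL/MpJ (0.72, adjusted p = 0.000873). Of 26 genes with known variants between strains, 3 were higher and 4 lower. Alad, an enzyme of haem synthesis known to vary in copy number, was at 8.53, 8.74 and 8.80 in KK/HlJ and 9.75, 9.72 and 9.76 in MRL/MpJ, 2.07-fold lower (adjusted p = 3.19e-09). Glo1, glyoxalase, which also varies in copy number, was at 9.63, 8.95 and 9.58 in KK/HlJ and 10.10, 10.19 and 10.36 in MRL/MpJ (-0.83, adjusted p = 8.23e-05).

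Among metabolic genes, 8 of 34 conjugation and antioxidant genes were higher and 3 lower (median 0.10), and without KK/HlJ replicate 3 the counts were 6 and 1. Gstm3, a glutathione transferase, was at 5.59, 5.91 and 7.65 in KK/HlJ and 5.08, 5.01 and 5.14 in MRL/MpJ, and its difference of 1.30 (adjusted p = 0.0106) was 0.67 without KK/HlJ replicate 3 (adjusted p = 0.0394). Of 23 cytochrome P450 genes 2 were higher and 2 lower, where 9.23% of all genes passed, and 3 and 2 without KK/HlJ replicate 3. Cyp2d22 was at 8.31, 8.23 and 8.04 in KK/HlJ and 8.97, 8.85 and 8.79 in MRL/MpJ (-0.68, adjusted p = 2.56e-05). Of 17 clock genes 4 were higher and 1 lower, led by the repressor Bhlhe41 (0.61, adjusted p = 0.000959); the hour of dissection is not on the labels. In the adipocyte, mesothelial and mast cell lists no gene passed, but without KK/HlJ replicate 3, 1 mast cell gene was lower.

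Of 23 lung tumour candidates measured, 1 was higher and 2 lower, where 9.23% of all genes passed. Without KK/HlJ replicate 3 the counts were 1 and 1. A 95% interval of the difference within 0.5 in either direction was found for 19, and for 76.1% of all genes. Egfr, the epidermal growth factor receptor, was at 7.58, 7.51 and 7.54 in KK/HlJ and 8.11, 7.79 and 7.88 in MRL/MpJ (-0.39, adjusted p = 0.0178). Fgfr4, a fibroblast growth factor receptor, differed by 0.42 (adjusted p = 0.0348) and Tnfaip8 by -0.41 (adjusted p = 0.0265). None of these passed in every set of arrays: Egfr did not without KK/HlJ replicate 2 or MRL/MpJ replicate 1, and Fgfr4 and Tnfaip8 each failed without any of 4 of the 6 arrays. The tumour suppressor Stk11 differed by -0.03 (95% interval -0.17 to 0.11) and the receptor Met by -0.02 (-0.21 to 0.17).

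A shared level was set as a 95% interval of the difference that lies within 0.5 in either direction. It held for 15408 genes (76.1%), and within 1 for 19649 (97.1%). With dim probe sets left out it held for 10748 genes, so part of the 15408 shared only a dim signal. Of the 5840 genes that differed among the 9 strains by limma's F test, 3613 had a shared level in KK/HlJ and MRL/MpJ (61.9%). By list, a shared level was met by 24 of 29 cell cycle genes, 15 of 20 endothelial genes, 16 of 20 immediate early genes, 15 of 22 fibroblast and matrix genes and 13 of 17 ciliated cell markers. The endothelial, fibroblast and ciliated lists were near or below the 76.1% of all genes. It was met by 2 of 18 neutrophil genes, 2 of 12 class II genes and none of 16 cardiac muscle genes. Pecam1, the endothelial adhesion molecule, was at 11.22, 11.15 and 11.13 in KK/HlJ and 11.18, 11.31 and 11.31 in MRL/MpJ (-0.10, 95% interval -0.23 to 0.04). Rrm1 and Mcm6, genes of DNA replication, were exceptions among the cell cycle genes: Rrm1 was at 8.89, 8.83 and 8.93 in KK/HlJ and 8.09, 8.10 and 8.11 in MRL/MpJ (0.78, adjusted p = 9.98e-06), and Mcm6 differed by -0.83 (adjusted p = 0.000168).

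A smaller question was which levels KK/HlJ and MRL/MpJ share against the other 7 strains, whose adenoma severity is labelled increased. With the strain as the unit, limma on the 9 strain means called 2 of 20239 genes (0.00988%), both higher in the pair, where 1425 had an unadjusted p under 0.05 (7.04%). Gm7582 was at 7.71, 7.53 and 7.83 in KK/HlJ, 7.95, 8.09 and 8.11 in MRL/MpJ and 5.89 to 7.24 on the other 21 arrays (difference of strain means 1.32, standard error 0.13, adjusted p = 0.0117). B4galnt2, a glycosyltransferase whose site of expression is known to vary among strains, was at 4.96, 5.11 and 4.95 in KK/HlJ, 5.11, 4.92 and 4.96 in MRL/MpJ and 3.78 to 4.30 on the others (0.98, standard error 0.07, adjusted p = 0.00206). All strain means of B4galnt2 were below the Sry level of 5.09. No gene was called lower in the pair by limma.

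Only 10 genes had all 6 arrays of the pair above the other 21 (0.0494%) and 5 had all below (0.0247%); with a difference of strain means of at least 0.5 there were 6 above (0.0296%) and 4 below (0.0198%). Hepacam, a cell adhesion molecule of glia, was at 8.03, 8.16 and 7.79 in KK/HlJ, 6.79, 6.63 and 6.75 in MRL/MpJ and 4.85 to 5.62 elsewhere (2.08, adjusted p = 0.0601), and KK/HlJ was itself 2.41-fold above MRL/MpJ (adjusted p = 1.3e-08). Ankrd63 was at 7.61, 7.85 and 7.20 in KK/HlJ, 7.10, 7.10 and 7.24 in MRL/MpJ and 5.14 to 7.05 elsewhere (adjusted p = 0.521). C57BL/6J, at 7.02, was the strain next to the pair for Ankrd63. Apoc1, an apolipoprotein gene, and Syt14, a synaptotagmin gene, completed the higher side with differences of 0.68 and 0.55 that limma did not call (adjusted p = 0.521 and 0.577). Capg, an actin-capping protein of macrophages, was at 7.33, 7.36 and 7.13 in KK/HlJ, 6.34, 6.31 and 6.47 in MRL/MpJ and 7.67 to 8.12 elsewhere (-1.10, adjusted p = 0.23). Dpt, the matrix protein dermatopontin, was at 9.29, 9.07 and 8.97 in KK/HlJ, 9.09, 9.21 and 9.31 in MRL/MpJ and 9.44 to 11.14 elsewhere (-0.90, adjusted p = 0.707). Gm5921 (-0.53) and Ccdc163 (-0.82) had the same order with adjusted p of 0.23 and 0.521. For all 8 of these genes the arrays of the pair lie outside those of the other strains, but the strain means do not pass the test.

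**Figure D5:**
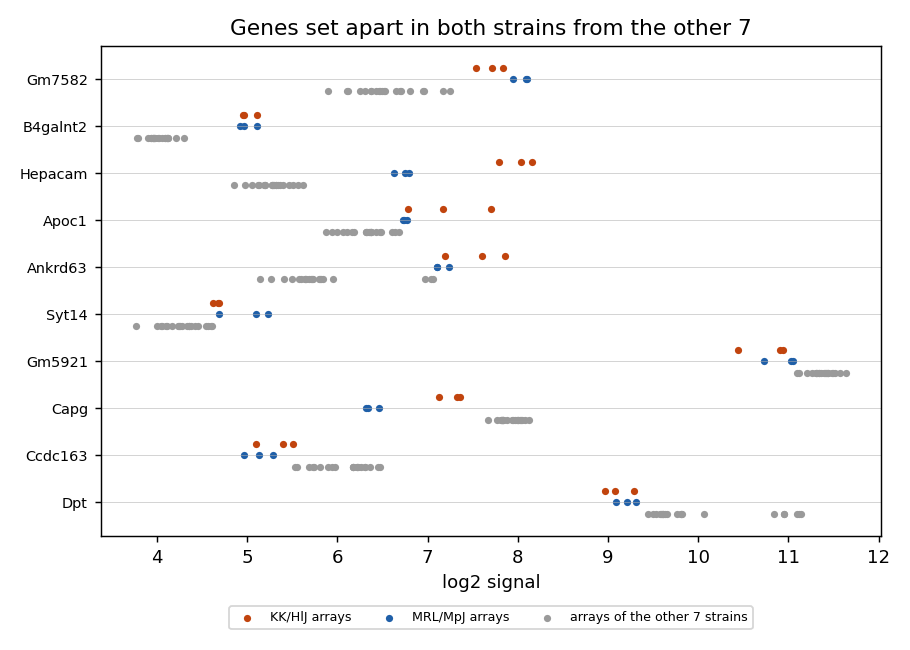
Log2 signal (x axis) of the 10 genes whose KK/HlJ and MRL/MpJ arrays lie outside the arrays of the other 7 strains by at least 0.5 in strain means, 1 row per gene: KK/HlJ arrays above, MRL/MpJ arrays in the middle, the other 21 arrays below. In Gm7582 and B4galnt2, the 2 called genes, the pair lies to the right of all other arrays.

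Some called genes lay beside each other. Counting genes within 5 tested places of each other along GRCm38.p6, 32 of the 135 were in 15 groups of 2 or 3. The same share was not worked out for all tested genes. Several groups, among them H2, Trim, Gbp and Ighv genes, are of 1 family whose probe sets may share target sequence. The groups of 3 were H2-T23, H2-T22 and H2-T10 on chromosome 17 and Trim12a, Trim34b and Trim30d on chromosome 7, each with both directions. Adam28 and Adamdec1, neighbouring metalloprotease genes on chromosome 14, were both lower in KK/HlJ, and Rsph1 and Slc37a1 on chromosome 17 both higher. Chromosome 3 held 14 called genes of 949 tested (1.48%), chromosome 6 held 16 of 1145 (1.4%) and chromosome 17 held 13 of 967 (1.34%). Chromosome 4 held 1 of 1171.

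The microRNA gene Mir30a was also among the called genes, named here after its values were seen. Its probe set read 5.82, 5.93 and 5.67 in KK/HlJ and 5.09, 4.74 and 4.50 in MRL/MpJ, at least 1.64-fold higher in KK/HlJ (adjusted p = 4.67e-05). The other strain means ran from 4.72 to 6.32. The array measures transcripts of the locus and not the mature forms, which RefSeq places on chromosome 1 of GRCm38.p6, plus strand; capitals mark the seed, bases 2 to 8, that pairs with targets.
mmu-miR-30a-5p (chr1:23272274-23272295): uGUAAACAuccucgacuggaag
mmu-miR-30a-3p (chr1:23272315-23272336): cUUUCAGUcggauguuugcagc
The arms have different seeds. The level of neither arm was measured here.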

How the data were processed

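Mouse Gene 1.0 ST arrays measured right-lung RNA of 27 mice, and the 3 arrays each of KK/HlJ and MRL/MpJ were grouped by strain label. The authors deposited log2 signal for 21225 probe sets. The affy package was used, per the submitters' processing notes; for its version and the normalization, no statement is given in the sources used here. Over all probe sets the array medians ran from 6.24 to 6.37, so values were used as deposited. The 20239 probe sets with 1 gene symbol were tested, and the 986 unnamed ones left out. The number of arrays limits the precision.

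In R 4.3.3, limma 3.58.1 fitted 1 mean per strain to all 27 arrays (lmFit, eBayes), and KK/HlJ minus MRL/MpJ was a contrast, with p-values adjusted over all genes by Benjamini-Hochberg. For the pair against the other 7 strains the same tool was fitted to 9 strain means. Simulated data with known differences were used to test both fits. Of 1002 entries in 52 gene lists, 904 were measured, 8 by an older symbol. The members, lists and tests were chosen with earlier results of these data known. Genes were named by rule: the 12 furthest called genes per direction with arrays apart, up to 4 members of each list by p, the pair's own genes, the most variable genes, and their relatives and neighbours. Rnf7, Mir30a, Fabp1, Ighv8-12, Adam28, Adamdec1, Slc37a1 and the list members given as not passing lie outside it and were chosen after their values were seen. Promoter and microRNA sequences are RefSeq's. Deviations of same-numbered arrays from their strain means correlated at 0.06, -0.19 and 0.04, so the replicate numbers do not pair the mice. Alternatives changed the normalization, filters, prior, array weights, arrays and strains used.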

Additional observations from a re-analysis of the deposited data

How the results depend on the processing

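The counts of genes called higher and lower and of genes with a shared level stayed within 1.5 times under quantile normalization, centred medians, dim probe sets left out, unnamed probe sets added, array weights, a robust prior with a trend on intensity, only the 6 arrays, the replicate block, and each KK/HlJ or MRL/MpJ array, or 1 C3H/HeJ array, left out. With a minimum difference of 0.5 there were 406 higher and 293 lower, and with 2 there were 24 and 11. Genes with any difference numbered 1869, but 678 when only the 6 arrays were fitted and 1176 to 2052 with an array left out, lowest without KK/HlJ replicate 1 and 1218 without MRL/MpJ replicate 3. List members that passed numbered 180, against 116 from the 6 arrays alone and 126 to 197 with an array left out; this count, and the list counts without KK/HlJ replicate 3, were added after seeing the data. Of the 135 called genes 125 passed with each of the 6 arrays left out in turn, but of the 180 list members only 98, so members near the threshold rest on single arrays. The genes called in the pair against the other 7 strains, 2 in number, became 1 without dim probe sets, 73 with strain as a random block, 323 with arrays taken as independent, 4 without C57BL/6J and 2 to 3 with an array left out. The replicate block gave 88 higher, 46 lower and 1879 with any difference. No called gene changed direction with any of the 6 arrays left out. Among the named genes, Serpina1c and Serpina1a, liver genes that did not pass, had differences of 1.59 and 0.46 with all arrays and -0.12 and -1.33 without KK/HlJ replicate 3, and the median of the MHC class I list was 0.05 and -0.05. The causes were not tested, except that fewer arrays or strains leave fewer degrees of freedom. The 3 arrays per strain and the unstated normalization limit small differences. Levels near or below 5.09 cannot be told from background, so differences among them, as for B4galnt2, are uncertain even where they passed.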
